A study of Mus musculus with 2 samples.

Results

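Monocytes were set apart from the other cells of a sorted tumor cell suspension by what their mRNA held. They were defined by measured UMIs (unique molecular identifiers, each standing for 1 captured mRNA molecule): a cell had to carry at least 4 UMIs of Ly6c2, Ccr2, Ms4a6c and Ms4a4c together, with at least 2 of these genes detected. Cells with 3 or more UMIs of the complement genes C1qa, C1qb and C1qc, with 1% or more of their UMIs in the neutrophil genes S100a8 and S100a9, with 3 or more UMIs of Krt8, Krt18 and Rhox5, or with any UMI of Cd79a, Ms4a1, Cd3e, Cd3g, Flt3 or Ccr7 were left out. The rule selected 432 of the 6335 cells that passed quality: 406 of 3902 from the Smad3-WT library and 26 of 2433 from the Smad3-KO library.

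The cells came from subcutaneous Lewis lung carcinoma (LLC) tumors, a mouse lung cancer line, grown in C57BL/6 mice of both sexes aged 8 to 12 weeks and sorted as CD11b+ Ly6G+ cells, which the labels call neutrophils. Smad3-WT (Smad3+/+) mice carried intact Smad3, whose product carries TGF-beta signals to the nucleus. Smad3-KO (Smad3-/-) mice carried a germline allele of Smad3 with deleted and disrupted coding exons, and the implanted carcinoma cells of both groups did not. Tumors of a genotype were pooled into 1 library with a 5′ droplet kit, so each genotype is represented by 1 library and mice cannot be told apart. Intervals given here therefore cover counting error only, and no difference between the genotypes could be tested. In all, 23951400 UMIs were counted for Smad3-WT (4116 barcodes) and 4214290 for Smad3-KO (2514 barcodes). Of the barcode sequences, 73 occurred in both libraries, and 0 of the monocytes bore such a barcode.

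Classical monocytes leave the bone marrow through the chemokine receptor CCR2, carry the surface protein Ly6C, and enter inflamed tissue and tumors. There they can turn into macrophages or into antigen-presenting cells. Interferons and TGF-beta are among the signals that set which genes they use.

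Ly6c2, which encodes a GPI-anchored surface protein, lies at chr15:75108158-75111970 on the minus strand (GRCm38, GENCODE M21). Ccr2 lies at chr9:124101950-124113557 on the plus strand. Ms4a4c at chr19:11404770-11427246 and Ms4a6c at chr19:11469366-11482192, also on the plus strand, belong to a family of membrane-spanning proteins. The 250 bases before 3 gene starts, taken from RefSeq (GRCm38.p6), are shown because Ly6c2 gave the rule its name and because Isg15 and Ifit3 stand for the interferon-stimulated genes that varied with it. In Ly6c2 (chr15:75111972-75112221, minus strand) capitals mark the letters GAGGAAGT, a core bound by the myeloid factor PU.1. In Isg15 (chr4:156200819-156201068, minus strand) and Ifit3 (chr19:34583279-34583528, plus strand) capitals mark GAAANNGAAA, an interferon-stimulated response element, where N is any base. Both motifs were searched on both strands, and the matches in Isg15 overlap each other.
Ly6c2: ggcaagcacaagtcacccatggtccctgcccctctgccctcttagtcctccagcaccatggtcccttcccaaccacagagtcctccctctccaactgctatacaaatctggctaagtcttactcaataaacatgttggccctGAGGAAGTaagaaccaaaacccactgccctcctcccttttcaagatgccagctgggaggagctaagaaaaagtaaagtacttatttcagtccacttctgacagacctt
Isg15: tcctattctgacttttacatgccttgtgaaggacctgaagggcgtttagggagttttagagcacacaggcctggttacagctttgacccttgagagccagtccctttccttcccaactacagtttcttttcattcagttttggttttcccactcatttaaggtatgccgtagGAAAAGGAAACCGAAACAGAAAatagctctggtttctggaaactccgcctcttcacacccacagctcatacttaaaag
Ifit3: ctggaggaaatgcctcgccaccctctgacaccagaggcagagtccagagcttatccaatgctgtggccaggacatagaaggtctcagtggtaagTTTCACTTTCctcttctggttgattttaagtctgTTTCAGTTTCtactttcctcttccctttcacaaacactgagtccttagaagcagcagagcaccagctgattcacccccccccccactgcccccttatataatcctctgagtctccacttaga

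Of 32851 such windows, 2.44% held GAGGAAGT and 2.98% held GAAANNGAAA. The response element stood before 7 of the 11 interferon-stimulated genes of a list of 17 for which a window was at hand, and before 0 of the 4 genes of the rule. GAGGAAGT stood before 1 of those 4, Ly6c2. A match is a description of the letters, not a bound site. Ly6c2 has a near-identical neighbor, Ly6c1: their longest coding transcripts were 97.6% identical, and 32.6% of all 50-base windows of Ly6c2 also occurred in Ly6c1. Reads may have been split between the pair, so values of either gene are uncertain to that extent.

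The monocytes made up 10.4% of Smad3-WT cells (exact binomial 95% interval 9.46 to 11.4) and 1.07% of Smad3-KO cells (0.699 to 1.56). They were not shallow cells: the median was 3197 UMIs and 1333 genes in Smad3-WT (range 577 to 14820 UMIs) and 3160.5 UMIs and 1376 genes in Smad3-KO (1129 to 8596). The conditions on other lineages acted unevenly. Of the Smad3-KO cells that had met every condition before it, the lymphoid one removed 31 of 61, leaving 30. In Smad3-WT it removed 15 of 427. Cells just outside and just inside the limit of 4 UMIs were about as frequent in Smad3-WT, with 43 cells at 3 UMIs and 42 cells at 4. In Smad3-KO there were 3 and 2. The median member carried 9 UMIs of the 4 genes in Smad3-WT and 11 in Smad3-KO. The share of a genotype's cells depends on what the sort let through, and fewer monocytes in the tumor and fewer monocytes in the gate cannot be told apart.

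The values that chose the cells were as follows, as CPM (the UMIs of a gene summed over the cells and scaled to a common total, not corrected for gene length). Ly6c2 stood at 812 in Smad3-WT (exact Poisson 95% interval 767 to 859) and 1944 in Smad3-KO (1663 to 2259) monocytes. Ccr2, the receptor for CCL2, stood at 894 (847 to 943) and 777 (604 to 986). Ms4a6c stood at 863 and 1109, and Ms4a4c at 635 and 732. In C1q macrophages, that is cells with 3 or more C1q UMIs under the same exclusions, with no condition on the 4 genes (368 in Smad3-WT, 23 in Smad3-KO), Ly6c2 stood at 134 and 152. Carcinoma cells of the Smad3-WT library held 6.66 CPM of Ly6c2, and B cells of the Smad3-KO library 127, while T cells held 412 in Smad3-WT and 397 in Smad3-KO, above the C1q macrophages. T cells held 4097 and 857 CPM of Lyz2. They were chosen by Cd3e and Cd3g, without Cd79a or Ms4a1 and under the same limit on S100a8 and S100a9. No condition was set on C1q or Krt genes. Their C1qb stood at 898 and 67.0 CPM, and their median depth was 6867 and 1440 UMIs. The part of macrophage RNA in the T cell values here and below was not tested. The 4 genes of the rule are no finding, as they selected the cells.

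Markers that the rule did not use were then set against the label. Lyz2, the lysozyme of myeloid cells, stood at 14259 CPM in Smad3-WT monocytes (14069 to 14450) and 7901 in Smad3-KO (7323 to 8512), against 333 in Smad3-WT carcinoma cells and 93.0 in Smad3-KO B cells. Plac8, abundant in immature myeloid cells, stood at 1193 and 2218 CPM, and the chitinase-like gene Chil3 at 301 and 297. Fn1, the fibronectin gene given as a marker, stood at 1022 CPM in Smad3-WT (971 to 1074) but at 274 in Smad3-KO (176 to 408). Vcan, a matrix proteoglycan of classical monocytes, stood at 370 CPM in Smad3-WT and at 34.3 (3 UMIs) in Smad3-KO. The sort marker gene Ly6g was at 0 UMIs in the monocytes of both libraries, while Itgam, which encodes CD11b, stood at 399 and 91.5 CPM. Neutrophils of the same libraries held 19.3 and 170 CPM of Ly6g. By these markers the name monocytes suited the Smad3-WT set, while Fn1, Vcan and Itgam were low in the Smad3-KO set.

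**Figure D1:**
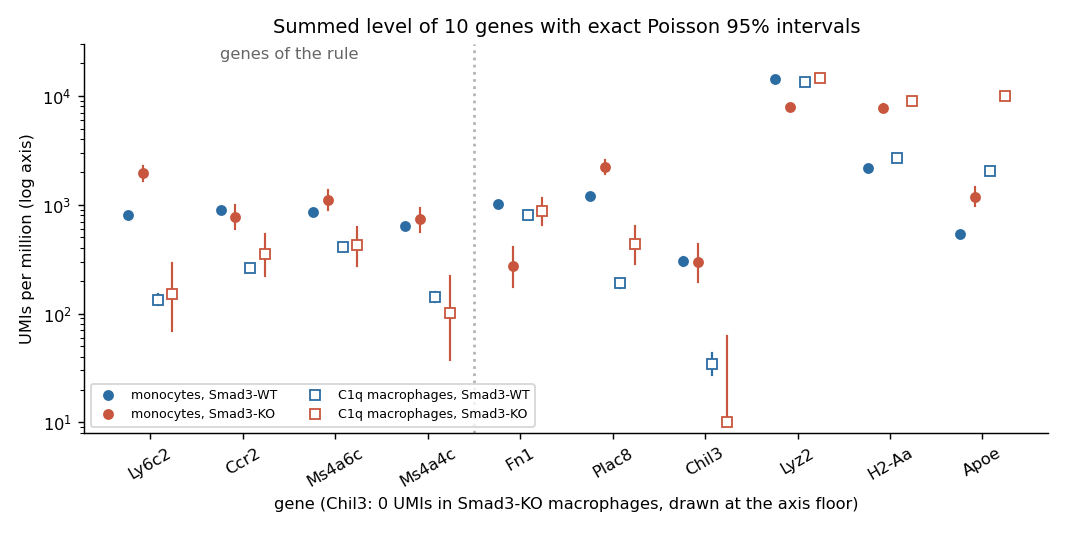
Summed level of 10 genes in CPM (log axis) in monocytes (filled circles) and C1q macrophages (open squares) of Smad3-WT (blue) and Smad3-KO (red); bars are exact Poisson 95% intervals, counting error only. Fn1 and Lyz2 sat lower in Smad3-KO than in Smad3-WT monocytes, Plac8 and H2-Aa higher, and Chil3 close together at 301 and 297.

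The 26 Smad3-KO cells were mixed. Siglech, a surface lectin of plasmacytoid dendritic cells, was detected in 4 of them, and those 4 cells also held 57 UMIs of Ly6d, 64 of Bst2 and 42 of Irf8, but 3 of Lyz2 and 0 of Csf1r. They supplied 54 of the 170 Ly6c2 UMIs. A further 17 cells carried no Siglech and at least 2 Lyz2 UMIs, and they held 687 of the 691 Lyz2 UMIs, all 24 Fn1 UMIs and 35 of the 37 Csf1r UMIs. The remaining 5 cells had no Siglech and fewer than 2 Lyz2 UMIs, and their rule genes were mainly Ms4a4c (21 UMIs) and Ms4a6c (9). In Smad3-WT, the same split gave 1 cell with Siglech, which held 120 Lyz2 UMIs. Of the cells without Siglech, 382 held at least 2 Lyz2 UMIs and 23 held fewer than 2. Over the whole list of 6 plasmacytoid markers the sum was 76.0 CPM in Smad3-WT, where Tcf4 was the most abundant and 1 member was at 0, and 1143 CPM in Smad3-KO, where Siglech was the most abundant and 0 members were at 0. Plasmacytoid dendritic cells are known for making large amounts of interferon. The ratios of Bst2, Ly6a, Irf8 and Ly6c2 between the libraries are therefore given without them as well.

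**Figure D2:**
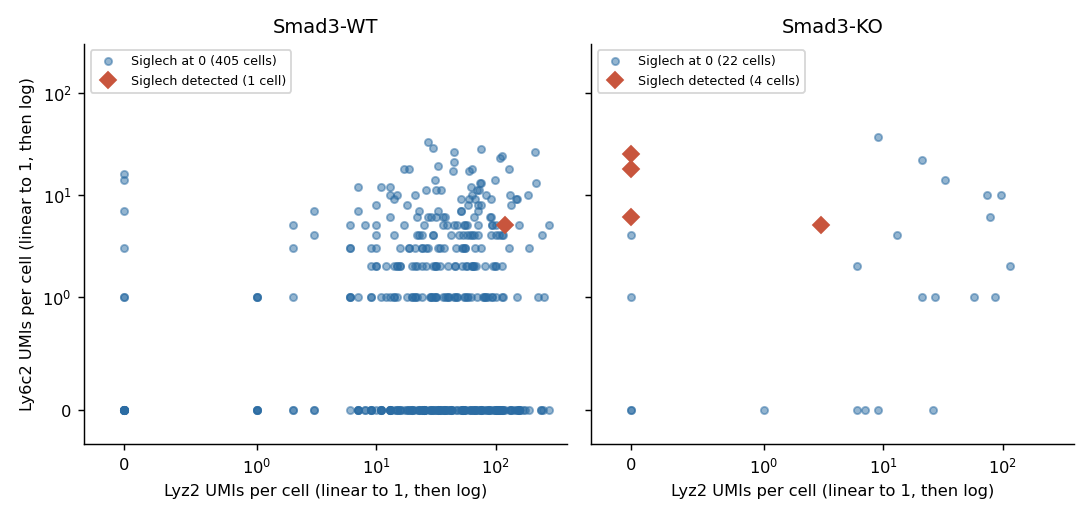
Ly6c2 against Lyz2 UMIs in each monocyte (both axes linear to 1 and then log), with cells in which Siglech was detected as diamonds; left Smad3-WT (406 cells), right Smad3-KO (26 cells). Of the 4 Smad3-KO diamonds, 3 sit at 0 Lyz2 UMIs, while most Smad3-WT cells sit above 10.

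Markers of other lineages were also present. Fibroblast markers (Col1a1, Col3a1, Dcn) summed to 2007 UMIs, or 1327 CPM, in Smad3-WT and to 1 UMI, or 11.4 CPM, in Smad3-KO. Of the 2007, 1983 lay in 5 cells with 2701 to 10980 UMIs each, which also held 382 Lyz2 UMIs. Col3a1, a fibrillar collagen, was thus at 675 CPM in Smad3-WT and at 0 in Smad3-KO, at least 19.7-fold lower when 3 UMIs over the group are taken as the floor. Those cells also bear on Ly6c1: 88 of its 102 Smad3-WT UMIs lay in the 7 cells with 3 or more fibroblast UMIs. The list of 10 neutrophil markers summed to 1425 CPM in Smad3-WT and 2858 in Smad3-KO monocytes, led by S100a9 (707 UMIs) and by Lcn2 (113 UMIs), with Ly6g at 0 in both. Of the 9 members with at least 20 UMIs, 4 were higher and 5 lower in Smad3-KO, with Lcn2 at 113 of 250 UMIs there, and their median ratio was 0.823. S100a8 and S100a9 were each detected in 119 of 406 Smad3-WT cells, below the limit of the rule. The list of 6 B cell markers summed to 33.1 and 354 CPM, led by Ighm in both (45 and 25 UMIs). T and NK cell markers summed to 48.3 and 206 CPM, led by Gzma (48 UMIs, all in 1 cell) and Cd8a (13, in 2 cells). The rule had set Cd79a, Ms4a1, Cd3e and Cd3g to 0. The part of these cells in the differences below was not tested.

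The Smad3-WT monocytes differed widely in Ly6c2: 174 cells had 0 UMIs, 143 had 1 to 4 and 89 had 5 or more, up to 33 in 1 cell. Their median depths were alike, at 3287, 3014 and 3248 UMIs. Along this order interferon-stimulated genes were higher and MHC class II genes were lower, while the classical monocyte markers were split, with 7 of 13 higher and a median ratio of 1.12. The limit of 5 parts 22 cells with exactly 4 UMIs from 20 with exactly 5. Because a cell without Ly6c2 needed 4 UMIs of the other rule genes, Ccr2, Ms4a6c and Ms4a4c are not read along this order. The same condition may bear on genes that vary with the rule genes, interferon-stimulated and class II genes included. Its part in the values below was not tested. The cells are of 1 library, so what follows describes it and was not tested.

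All 17 interferon-stimulated genes had higher CPM in cells with 5 or more Ly6c2 UMIs than in cells with 0, with a median ratio of 2.45. Over all 6383 genes with at least 20 UMIs, 2983 were higher and the median ratio was 0.966. The list summed to 3225, 5486 and 8312 CPM over the 3 ranges. Isg15, a ubiquitin-like modifier, stood at 444, 1000 and 1532 CPM, a ratio of 3.45 (2.99 to 3.98) between the ends. Irf7, the factor that amplifies interferon production, stood at 281, 508 and 1207 CPM (ratio 4.29, 3.61 to 5.12). Ifit3, which binds viral RNA complexes, stood at 71.4, 241 and 227 CPM, so its step lay between the lower ranges. Hp, the haptoglobin gene, had the highest ratio of the ranked genes (6.39, 4.20 to 9.97), with 43.7, 160 and 279 CPM. Some genes with few UMIs were not ranked and lay above it, such as Gpnmb at 22.0 (3.19 to 945) on 1, 28 and 11 UMIs. Plac8 stood at 510, 1504 and 2119 CPM.

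The 7 MHC class II genes ran opposite to the interferon-stimulated genes, with 0 of 7 higher at the Ly6c2 end and a median ratio of 0.239. H2-Aa stood at 3538, 1210 and 843 CPM. Cd74, the invariant chain that guides class II molecules, stood at 11645, 4860 and 3265 CPM. Mgl2 and Cd209a, lectins of dendritic cells and some macrophages, stood at 396, 20.8 and 43.6 and at 252, 37.4 and 29.1 CPM. The chemokine Ccl24 stood at 687, 197 and 142 CPM. Lyz2, by contrast, stood at 13874, 13940 and 15472 CPM and Thbs1, the thrombospondin gene, at 4192, 4368 and 4015, both nearly level. The collagens Col1a1 and Col1a2 had the lowest ratios of the ranked genes. Col1a1 held 564, 321 and 0 UMIs over the ranges, and nearly all of them lay in the 5 cells described above. Dcn was also at 0 in the highest range, as was Gzma (48, 0 and 0 UMIs), which was not ranked. Without the 7 cells with 3 or more fibroblast UMIs, still 17 of 17 interferon-stimulated genes were higher (median ratio 2.51) and 0 of 7 class II genes (0.238).

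**Figure D3:**
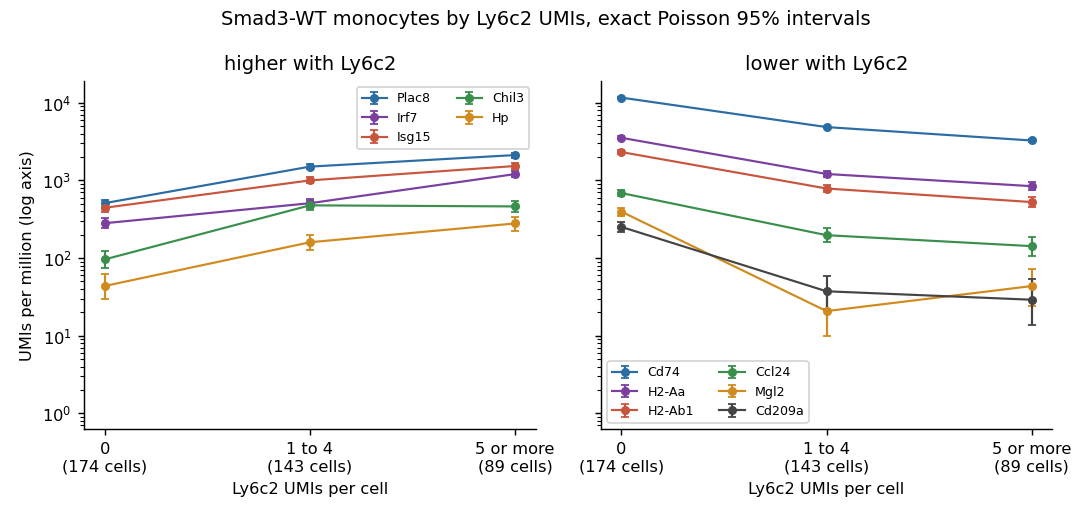
Level of 11 genes in CPM (log axis) in Smad3-WT monocytes with 0, 1 to 4 and 5 or more Ly6c2 UMIs; points are sums over 174, 143 and 89 cells with exact Poisson 95% intervals. The genes on the left stood higher at 5 or more than at 0, with Chil3 level over the upper ranges (477 and 462), and those on the right stood lower, with Mgl2 lowest in the middle range (20.8).

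Class II transcripts were concentrated in few cells. H2-Aa was at 0 in 287 of 406 Smad3-WT monocytes, and the 10% of cells with most of it held 77.1% of its UMIs. Sorted by UMIs of H2-Aa, H2-Ab1 and H2-Eb1, 249 cells had 0, 72 had 1 to 9 and 85 had 10 or more. The 85 were deeper cells (median 4655 UMIs against 2969 at 0). They held 197 of the 201 Cd209a UMIs, in 17 cells, 289 of the 297 Mgl2 UMIs, in 35 cells, and 108 of the 117 UMIs of Klrd1, a lectin-like receptor of NK cells and some dendritic cells. Their Ly6c2 stood at 318 CPM against 1054 at 0, and Chil3 at 60.9 against 453. Their Thbs1 stood at 1428 CPM against 5368. Their Lyz2 was nearer to the rest, at 10610 CPM against 16765. In Smad3-KO, 8 cells had 0 of these UMIs, 4 had 1 to 9 and 14 had 10 or more, among them all 4 cells with Siglech. Ly6c2 did not run the same way there, at 1752 CPM at 0, 396 (5 UMIs) at 1 to 9 and 2466 in cells with 10 or more. Of the 117 Ly6c2 UMIs in this last range, 54 lay in the 4 cells with Siglech.

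Against C1q macrophages, the tissue macrophages of the same libraries, monocytes were higher in interferon-stimulated genes in both libraries and lower in genes of lysosomes, lipid handling and resident macrophages. Since C1q and the rule genes separated the classes, these are descriptions, and the rule genes are left out of the counts. The macrophages were deeper in Smad3-WT (median 5627 UMIs) and shallower in Smad3-KO (2305). Of 6843 genes with at least 50 UMIs, 137 (2.0%) were at least 2-fold higher in monocytes in both libraries and 193 (2.82%) at least 2-fold lower. In Smad3-WT alone the counts were 272 (3.97%) higher and 456 (6.66%) lower. Of these, 206 of the 272 and 315 of the 456 lay on the same side in Smad3-KO. The share of all 6843 genes on each side in Smad3-KO is not given here, so these counts have no background beside them. Counts of list members against macrophages below have only the medians of all genes beside them. In 100 genes the libraries were 2-fold apart in opposite directions.

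Interferon-stimulated genes were higher in monocytes for 16 of 17 members in each library, with median ratios of 2.54 (Smad3-WT) and 3.38 (Smad3-KO), beside 0.942 and 0.923 over all genes with at least 20 UMIs. Isg15 stood at 869 CPM in Smad3-WT monocytes and 277 in macrophages, a ratio of 3.13 (2.85 to 3.45), and at 892 and 236 in Smad3-KO, a ratio of 3.77 (2.12 to 7.22). Irf7 gave 3.16 (2.81 to 3.56) and 5.75 (2.98 to 12.4). In Smad3-KO, 29, 3 and 53 Irf7 UMIs lay in cells with 0, 1 to 9 and 10 or more UMIs of H2-Aa, H2-Ab1 and H2-Eb1. The last range held all 4 cells with Siglech. The Smad3-KO ratio of Irf7 and the Smad3-KO count and median of the list are given with those cells included. Ifit3 gave 3.21 (2.57 to 4.04) in Smad3-WT and, resting on 5 UMIs in Smad3-KO monocytes, 0.677 (0.156 to 2.94) there. Bst2, or tetherin, which is also abundant in plasmacytoid cells, stood at 1.07 (0.967 to 1.17) and 3.96 (2.45 to 6.72). Without the cells with Siglech its Smad3-KO ratio was 2.10, with 0.5 UMI added to each sum.

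Of the 13 classical monocyte markers, 11 were higher in Smad3-WT monocytes (median ratio 1.735) and 8 in Smad3-KO (1.24), where Fn1 (0.312), F13a1 (0.467), Itgam (0.451, 0.160 to 1.201) and Lyz2 (0.538) lay below macrophages. With cells thinned to 1000 UMIs the Smad3-KO ratio of Lyz2 was 1.12. Plac8 was 6.29-fold (5.66 to 6.99) and 5.05-fold (3.34 to 7.93) above macrophages. Chil3 was 8.69-fold (6.85 to 11.2) above in Smad3-WT, and in Smad3-KO it was at 0 in macrophages, so at least 5.87-fold above. Cd209a, which came from few cells, was 31.1-fold (16.6 to 65.9) above in Smad3-WT and 4.29-fold (1.26 to 22.6) in Smad3-KO. Cxcl10, an interferon-induced chemokine, was 2.64-fold (2.33 to 2.98) above in Smad3-WT and at least 2.71-fold in Smad3-KO.

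Macrophage genes lay below. Apoe, the main lipid carrier of macrophages, stood at 533 CPM in monocytes and 2039 in macrophages of Smad3-WT, a ratio of 0.261 (0.242 to 0.282), and at 1189 and 10066 in Smad3-KO, a ratio of 0.118 (0.0950 to 0.146). Trem2, a lipid receptor, gave 0.411 (0.349 to 0.483) and 0.0484 (0.00558 to 0.192). The chemokine Ccl8 gave 0.0118 (0.00866 to 0.0158) and 0.0501 (0.0179 to 0.114). Cbr2, a carbonyl reductase of resident macrophages, gave 0.0468 and 0.0451. Of 12 lysosome and lipid genes, 2 were higher in Smad3-WT monocytes and 0 in Smad3-KO, with median ratios of 0.584 and 0.438. Ctsb, a lysosomal protease, stood at 0.521 (0.495 to 0.548) and 0.326 (0.268 to 0.395). The summed levels of MHC class II genes were close, with medians of 0.858 and 0.868, and H2-Aa at 0.820 and 0.868. In Smad3-WT this sum came from few monocytes: H2-Aa was detected in 29.3% of monocytes and 67.1% of the deeper macrophages, against 69.2% and 73.9% in Smad3-KO. Lyz2 did not separate the classes in Smad3-WT by more than 1.06-fold (1.05 to 1.08).

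**Figure D4:**
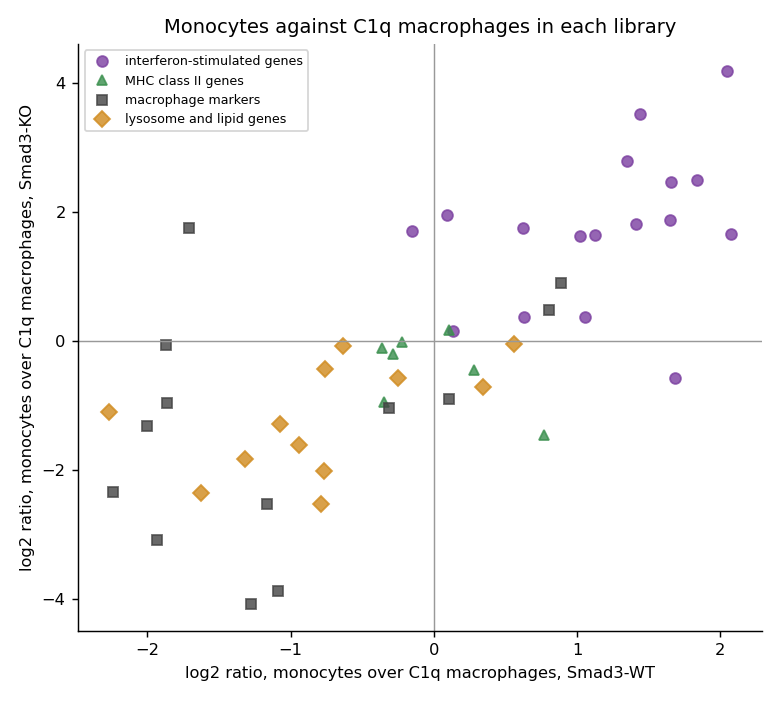
Log2 ratio of monocytes over C1q macrophages in Smad3-WT (horizontal) and Smad3-KO (vertical) for members of 4 gene lists with at least 20 UMIs, 0.5 UMI added, C1q genes left out; lines mark equal levels. Most interferon-stimulated genes (16 of 17 in each library) lie above equality, and lysosome and macrophage genes mostly lie below in both.

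Between the genotypes, monocytes of the Smad3-KO library held more of Il1rn, Cd274, H2-Aa and Ccl3, and less of Ccl6, Ccl2, Thbs1, Spp1 and glycolytic genes. Of 3823 genes with at least 50 UMIs, 400 (10.5%) were at least 2-fold higher in Smad3-KO and 491 (12.8%) at least 2-fold lower. Of the latter, 82 were at 0 in Smad3-KO, and by the floor of 3 UMIs only 12 of these, and 421 genes in all, were 2-fold lower. With median-of-ratios scaling the split was 240 higher and 648 lower. The sums were uneven, 1512476 UMIs in Smad3-WT against 87460 in Smad3-KO, and over all 6590 genes with at least 20 UMIs the median ratio was 1.14, or 0.19 on the log2 scale, with 1220 genes 2-fold higher and 936 lower. Low genes rest on few Smad3-KO UMIs. Genotype, library and pool of tumors cannot be told apart.

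Glycolysis and hypoxia genes were lower for 9 of 9 members, 8 of them at least 2-fold, with a median ratio of 0.366. Eno1, enolase, stood at 2820 CPM in Smad3-WT (2736 to 2906) and 720 in Smad3-KO (554 to 922), a ratio of 0.255 (0.196 to 0.328). Pkm, the last kinase of glycolysis, stood at 2132 and 595 (0.279, 0.208 to 0.367), and Ldha, lactate dehydrogenase, at 1545 and 549 (0.355, 0.261 to 0.473). Other cells of the libraries were apart too: Eno1 stood at 1554 and 584 CPM in T cells and at 1517 and 789 in neutrophils. Gapdh, outside the list, stood at 8458 and 1429 CPM, while Gm3839, a predicted gene whose transcript is 92.2% identical to that of Gapdh, stood at 3.97 and 1212. Reads may have been split between this pair, and Gm3839 stood at 13.1 and 987 CPM in T cells too, so its ratio of 306 (136 to 851) is uncertain.

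Chemokine ligands were lower for 11 of 16 members, all 11 at least 2-fold with 0.5 UMI added, and higher for 5, with a median ratio of 0.273. Of the 11, Ccl5 and Cxcl1 were at 0 in Smad3-KO and not 2-fold lower by the floor of 3 UMIs, which left 9 and a median of 0.323. Ccl6, a myeloid chemokine, stood at 9264 CPM in Smad3-WT (9112 to 9419) and 549 in Smad3-KO (405 to 728), 16.9-fold lower. Ccl2, the ligand of CCR2, stood at 2553 and 309, 8.27-fold lower, and Ccl9 at 1930 and 274, 7.03-fold lower. In the T cells of the libraries (51 and 307 cells) Ccl6 stood at 4250 and 246 CPM and Ccl2 at 879 and 10.3. Those T cells were chosen without a condition on C1q genes, and they also held C1qb at 898 and 67.0 CPM. In Smad3-WT carcinoma cells Ccl6 stood at 330 CPM and in Smad3-KO B cells at 110. The part of RNA from outside the cells was not tested. Ccl3 and Ccl4, inflammatory chemokines, stood higher in Smad3-KO monocytes, at 365 and 1326 (ratio 3.63, 2.95 to 4.45) and at 752 and 1532 (2.04, 1.69 to 2.44). Cxcl2, which draws neutrophils, stood at 2974 and 5385 CPM. Neutrophils held far more of these, with 26388 and 44599 CPM of Cxcl2. Cxcl16, a membrane-bound chemokine of macrophages and dendritic cells, stood at 71.4 and 274 CPM.

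Macrophage effector genes were lower for 6 of 8 members, all 6 at least 2-fold, with a median ratio of 0.256. Spp1, or osteopontin, stood at 1580 CPM in Smad3-WT and 389 in Smad3-KO (0.246, 0.170 to 0.345). It was uneven among cells, at 0 in 214 of 406 and 21 of 26. Hmox1, heme oxygenase, stood at 1383 and 320 (0.231, 0.153 to 0.336). Thbs1 stood at 4208 and 423 CPM, 9.95-fold lower. Cd274, which encodes PD-L1, ran the other way at 104 and 389 CPM (3.75, 2.51 to 5.45). It stood at 393 and 1769 CPM in neutrophils. In T cells Hmox1 stood at 1042 and 44.6 CPM and Spp1 at 753 and 27.5. Thbs1 was lower in other Smad3-KO cells as well. It stood at 1063 and 101 CPM in T cells, at 1119 and 338 in C1q macrophages and at 6103 and 3875 in neutrophils.

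The classical monocyte markers were split, with 6 of 13 higher and 7 lower in Smad3-KO, 0 and 5 of them at least 2-fold, and a median ratio of 0.715. Fn1 was 3.72-fold lower (0.269, 0.172 to 0.401), Cd14, the LPS co-receptor, stood at 629 and 194 CPM (0.309, 0.179 to 0.497), and Itgam gave 0.229 (0.0986 to 0.455). Fn1 and Cd14 were lower in Smad3-KO T cells and neutrophils too. Fn1 stood at 433 and 63.5 CPM in T cells and at 389 and 82.5 in neutrophils, and Cd14 at 244 and 56.7 and at 3155 and 1806. In C1q macrophages Fn1 was not lower, at 806 and 878 CPM, while Cd14 stood at 363 and 169. Chil3 gave 0.988 (0.639 to 1.47) and Csf1r, the receptor for macrophage colony-stimulating factor, 1.30 (0.905 to 1.82), with intervals that include equal levels. Lyz2 gave 0.554 (0.513 to 0.598). With only cells that held at least 2 Lyz2 UMIs, Fn1 was 0.342. Lyz2 was 0.690 among them, a value not read further, since the limit is on Lyz2 itself. The complement receptor C5ar1 stood at 627 and 57.2 CPM. Of the 7 chemotactic receptors 4 were higher and the median ratio was 1.52, but their summed level was lower, at 1612 and 732 CPM (0.454, 0.348 to 0.582). The median was 0.976 with at least 6 UMIs of the rule genes and 0.364 after thinning each cell to 1000 UMIs.

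Of the interferon-stimulated genes 11 of 17 were higher in Smad3-KO, and their median ratio was 1.27. Over all genes 3859 of 6590 were higher and the median was 1.14, so the list lay near that background. Isg15 gave 1.03 (0.806 to 1.29). Ly6a, or Sca-1, stood at 580 and 1738 CPM (2.997, 2.51 to 3.56) and Bst2 at 467 and 1338 (2.87, 2.34 to 3.49). Both moved with the cells that carried Siglech: without them, and with 0.5 UMI added, Ly6a gave 2.18 and Bst2 1.57. Irf8, a factor of dendritic cells and monocytes, stood at 149 and 617 CPM (4.15, 3.02 to 5.61), and without those cells its ratio was 1.15. Ly6c2 itself gave 2.39 (2.03 to 2.81), and 1.94 without them.

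MHC class II genes were uneven. H2-Aa stood at 2183 CPM in Smad3-WT (2109 to 2259) and 7798 in Smad3-KO (7224 to 8406), a ratio of 3.57 (3.28 to 3.88), and H2-Ab1 at 1422 and 3773. H2-Eb1, whose product is also a class II beta chain, stood at 1597 and 183, 8.73-fold lower. Other classes were apart as well. H2-Aa was higher in Smad3-KO C1q macrophages, at 2664 and 8985 CPM, and neutrophils, at 688 and 1335. H2-Eb1 was lower in both classes, at 2029 and 355 and at 498 and 31.8 CPM. In T cells H2-Aa and H2-Eb1 were both lower in Smad3-KO, at 1772 and 1296.5 CPM and at 1297 and 49.8. In Smad3-KO B cells H2-Aa stood at 8568 and H2-Eb1 at 278. Cd74 stood at 7577 and 12520 CPM (1.65, 1.55 to 1.76). In the list, 5 of 7 members were higher, and the median was 1.11, but 1.795 after thinning and 1.91 with only cells that held at least 2 Lyz2 UMIs.

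**Figure D5:**
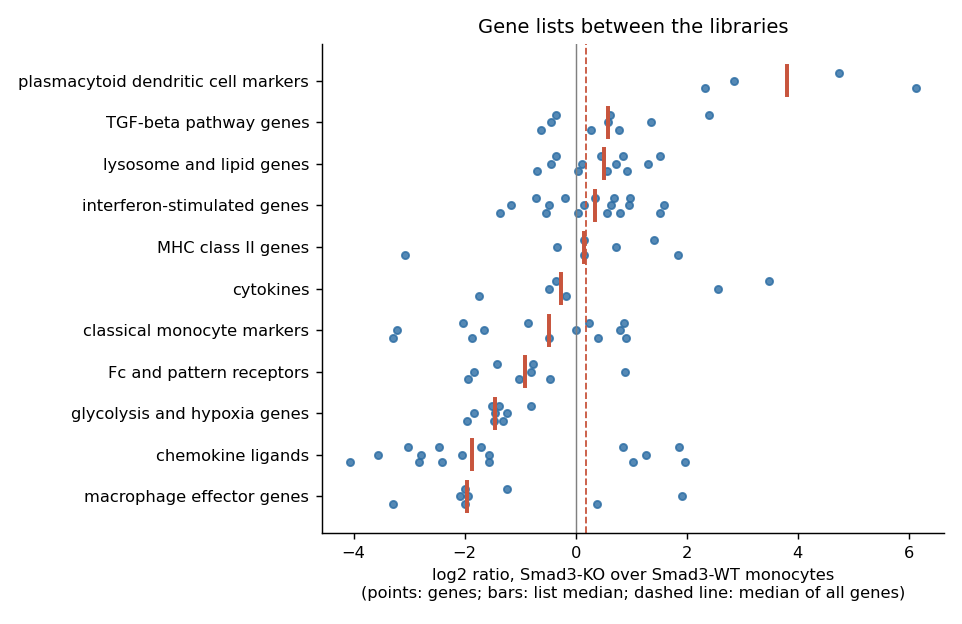
Log2 ratio of Smad3-KO over Smad3-WT monocytes for each gene (points) of 11 lists with at least 20 UMIs, 0.5 UMI added; red bars are list medians and the dashed line the median of all genes (1.14 as a ratio). Glycolysis, chemokine ligand and macrophage effector lists lie to the left with medians of 0.366, 0.273 and 0.256, and the plasmacytoid markers to the right.

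Among cytokines, Il1rn, which encodes the antagonist of the interleukin-1 receptor, stood at 421 and 2481 CPM (5.89, 5.03 to 6.88), while Il1b stood at 906 and 640 (0.707, 0.531 to 0.924). Only 2 of the 6 cytokines with at least 20 UMIs were higher, and their median was 0.828. It was 1.57 with a minimum of 1 UMI, and the summed level of the list was higher in Smad3-KO, at 1994 and 3899 CPM (1.96, 1.74 to 2.19). Il1rn stood at 236 and 192 CPM in T cells and higher, at 3300 and 5077, in neutrophils. The part of neutrophil RNA in the Il1rn difference was not tested. TGF-beta pathway genes had 6 of 9 higher and a median ratio of 1.49, a count near the 3859 of 6590 over all genes. Their summed level was lower, at 1519 and 1223 CPM (0.805, 0.657 to 0.978), led by Tgfbi, a secreted TGF-beta target, at 873 and 560 CPM. Smad3 itself could not check the genotype: it stood at 15.2 CPM (23 UMIs) in Smad3-WT and 34.3 CPM (3 UMIs) in Smad3-KO monocytes, and a 5′ read need not cover the deleted exons. Lysosome and lipid genes had 9 of 12 higher and a median of 1.43, but 0.827 after thinning, and their summed level gave 1.10 (1.02 to 1.18). Fc and pattern receptors had 7 of 8 lower and a median of 0.533. Transcription factors (9 measured, median 0.839) and adhesion genes (7 measured, median 1.18, but 0.824 by their summed level) lay closer to equality. Immediate early genes had 2 of 8 higher and a median of 0.664. Non-classical monocyte markers, low in both sets with summed levels of 240.0 and 412 CPM, had 7 of 8 higher and a median of 2.13. The 3 dendritic cell markers with enough UMIs were all higher (median 3.12), as were 4 of 4 cell cycle genes (median 3.12), whose summed level was 119 and 286 CPM.

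Of the 12 genes with the highest ratios, Gm3839 was followed by Lcn2, the neutrophil lipocalin, at 10.6 CPM in Smad3-WT and 1292 in Smad3-KO monocytes. Lcn2 was at 467 and 7161 CPM in neutrophils and at 258 in Smad3-KO B cells. Gadd45b, a stress-response gene, stood at 76.0 and 572 CPM in monocytes and at 701 and 3081 in neutrophils. Pltp, a phospholipid transfer protein, stood at 83.3 and 526 (6.31, 4.40 to 8.91) and Ms4a7, a macrophage membrane protein, at 67.4 and 423 (6.27, 4.19 to 9.22). For these 2 genes neutrophils gave 73.8 and 53.4 and 36.0 and 28.4 CPM. C1q macrophages held more of both in Smad3-KO, with Ms4a7 at 248 and 439 CPM. Monocytes held 0.210 and 0.3725 times the macrophage level of Pltp in Smad3-WT and Smad3-KO, with 0.5 UMI added. Of the 12 lowest, Ppbp, the platelet chemokine, stood at 471 CPM in Smad3-WT and 0 in Smad3-KO, at least 13.7-fold lower, and it was also at 0 in Smad3-KO neutrophils, T cells and B cells. Hspa1a, a heat-shock gene, stood at 453 CPM and 1 UMI (0.0252, 0.000638 to 0.141). Pid1, which dampens insulin signaling, stood at 717 CPM and 4 UMIs (0.0638, 0.0173 to 0.164).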

How the data were processed

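The authors ran Cell Ranger 3.0.2 against mm10, per the labels and the file header, and deposited raw UMI counts per gene and cell for both libraries in 1 matrix, with a table of gene averages per genotype, a signal scaled to the median UMIs per cell. That signal was used only to match barcodes to genotypes: averages rebuilt from the counts differed from the deposited ones by at most 3.58e-08 under the match used and by up to 31.8 under the other. The authors' cluster comparisons (fold changes and p-values) were not used.

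Cells with at least 200 genes, over 500 UMIs and under 10% mitochondrial UMIs were kept, and the rule was applied with scipy 1.17.1, pandas 2.3.3 and numpy 2.4.6 under Python 3.11.15. Cell classes were rebuilt by rule and are not the authors' clusters; no doublet caller was run. Counts were summed per library. With 1 library per genotype no test was made. Intervals are exact (Poisson, Clopper-Pearson, split of 2 sums) at 95%. Ratios are of CPM; counts past 2-fold and list medians had 0.5 UMI added, with 50 and 20 UMIs as minimum. Named genes were all list members, the 12 genes highest and lowest between libraries (100 UMIs) and the 15 each way against macrophages (200 UMIs), beside some chosen after their values were seen (Siglech, Ly6d, Gapdh, Klrd1 and Mgl2 among them). The members and lists were chosen with earlier results of these data known. Alternatives covered cell limits, rule limits, thinning to 1000 UMIs, scaling, averaging over cells and gene filters.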

Additional observations from a re-analysis of the deposited data

Results flagged for a closer look

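Of 254 named genes outside the rule, 12 stood on opposite sides of C1q macrophages in the 2 libraries, with a ratio in both and intervals that leave out equal levels. Fn1 was 1.268 times the macrophage level in Smad3-WT monocytes and 0.3124 times in Smad3-KO. Lyz2 was 1.065 times in Smad3-WT and 0.5383 times in Smad3-KO. Ly6a was 0.9011 times in Smad3-WT and 3.319 times in Smad3-KO. In the other direction from Ly6a, and with few Smad3-KO UMIs in several, Ccl9 was 1.181 and 0.4513, C5ar1 1.104 and 0.2821, Dusp1 1.283 and 0.612, Plin2 1.271 and 0.6106, Pid1 2.008 and 0.2257 and Smpdl3a 1.847 and 0.3077 times the macrophage level in Smad3-WT and Smad3-KO. Col1a1 (1.662 and 0.02184) and Col1a2 (1.364 and 0.02821) had 1 UMI each in Smad3-KO monocytes. Gm3839 (0.3439 and 1.435) shares sequence with Gapdh and is uncertain. With 1 library per genotype, the difference between the libraries was not tested. Without the cells with Siglech, and with 0.5 UMI added to each sum, the Smad3-KO values were 0.375 for Fn1, 0.637 for Lyz2 and 2.39 for Ly6a. Among cells thinned to 1000 UMIs the Smad3-KO value of Lyz2 was 1.12.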

How the results depend on the processing

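Leaving out a replicate, or pairing them, was not possible with 1 library per genotype. The cell filters moved the share of Smad3-WT cells that were monocytes from 10.4% to 11.5% with an upper limit of 20000 UMIs, 12.6% with one of 8000, 11.5% and 8.355% with at least 3 and 6 UMIs of the 4 genes, 9.252% with 0 C1q UMIs, and 6.848% with cells thinned to 1000 UMIs, which left out 1507 Smad3-WT and 846 Smad3-KO cells. The Smad3-KO share ran from 0.740% to 1.23%. The counts of genes 2-fold higher and lower in Smad3-KO were 17 and 100 after thinning, 1219 and 936 with at least 20 UMIs per gene, and 35 and 154 with at least 200. Against macrophages in both libraries they were 72 and 46, 207 and 323, and 71 and 54. Median-of-ratios scaling moved the median of all genes from 0.19 to -0.03 on the log2 scale and gave 240 higher and 648 lower genes. Among the list medians of Smad3-KO over Smad3-WT, these moved by over 1.5 times. At least 3 UMIs of the 4 genes gave fibroblast 0.4061. At least 6 gave macrophage 0.6028, neutrophil 0.5161, fibroblast 0.1473 and chemotactic receptors 0.9757. With 0 C1q UMIs, macrophage was 0.5311, plasmacytoid 34.7 and fibroblast 0.0118. With S100a8 and S100a9 under 0.5%, neutrophil was 1.446. Thinning gave macrophage 0.5971, neutrophil 0.3455, chemotactic receptors 0.3635, chemokine ligands 0.1798, MHC class II 1.795, glycolysis 0.5789, lysosome 0.8268, and fibroblast 707.2, a reversal on Col3a1 alone (707.2, from 34 UMIs in 1 Smad3-KO cell against 0 in the Smad3-WT set, so a value set by the 0.5 UMI added). The limit of 20 UMIs lowered to 1 gave plasmacytoid 32.91, cytokines 1.572, and reversals of the T and NK list (4.194) and the carcinoma list (1.153). Averaging over cells gave neutrophil 1.546 and fibroblast 0.05545. Added after seeing the data, leaving out cells with Siglech gave plasmacytoid 3.108, keeping cells with at least 2 Lyz2 UMIs gave plasmacytoid 3.114 and MHC class II 1.909, and under 8000 UMIs gave neutrophil 1.272, plasmacytoid 35.54 and fibroblast 0.06436. Besides these reversals, the direction also turned in the neutrophil, cytokine, chemotactic receptor and lysosome medians given here that lie across 1 from their values of 0.823, 0.828, 1.52 and 1.43. The cause of these shifts was not tested. Of the values of single genes in this tally, 1328 stayed within their counting interval, 175 moved and 1 reversed. That reversal was Col3a1 between the libraries. The turn of the Smad3-KO ratio of Lyz2 to macrophages after thinning, given above, is not counted in it. With 87460 UMIs in the Smad3-KO sum, 1 UMI there stands for 11.4 CPM.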
